A study of Mus musculus with 203 samples.

Results

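The 4 genes of the phospholipase C beta family (Plcb1, Plcb2, Plcb3 and Plcb4) and 6 genes of the diacylglycerol kinase family (Dgka, Dgkb, Dgkg, Dgkh, Dgki and Dgkz) were described in single neurons of the mouse nucleus ambiguus (Amb), the brainstem nucleus that holds vagal motor neurons of the heart and larynx. These 10 genes, of the 24029 in the count table, were picked by name with their levels in these same neurons already known, so the differences between neuron types given here are descriptions and not tests. The neurons came from wild-type C57BL/6 mice, C57BL/6NCrl in the study's methods, at postnatal day 2 to 4. A fluorescent cholera toxin B tracer had been injected into the pericardial space through a thoracotomy to label heart-projecting neurons, or into the cricothyroid muscle through an incision over the larynx to label larynx-projecting ones, in both cases under cold anesthesia with buprenorphine, so the surgery differed between heart-labeled and larynx-labeled neurons and cannot be told apart from their target. Labeled neurons were aspirated 1 at a time from live slices and prepared with Smart-seq2, a full-length cDNA method without molecular identifiers. The heart-labeled neurons comprised 53 ACP and 98 ACV neurons, and 52 larynx-labeled neurons formed the Larynx type. ACP and ACV, the ambiguus cardiopulmonary and cardiovascular types, are names from the deposited annotation and rest on clustering of these same counts. Neither the labels nor the annotation tie neurons to mice, so each type counts as 1 sample, neurons are not replicates, and no p-value was computed; spread is given as the SD between neurons.

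Phospholipase C beta enzymes are switched on by receptors that couple to the Gq family of G proteins. They split the membrane lipid PIP2 into IP3 and diacylglycerol. IP3 releases calcium from internal stores, and diacylglycerol activates most forms of protein kinase C and other proteins with a C1 domain. Diacylglycerol kinases end the diacylglycerol signal by phosphorylating it to phosphatidic acid, the first step in rebuilding the lipid. The kinases fall into types by their domains: type I (Dgka, Dgkb, Dgkg) binds calcium through EF hands, type II (Dgkd, Dgkh, Dgkk) carries a pleckstrin homology domain, type III is Dgke, type IV (Dgki, Dgkz) carries ankyrin repeats, and type V is Dgkq. In motor neurons such receptors carry slow modulatory input, including that of peptides, amines and glutamate.

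Levels are counts per 10000 of a neuron's counts outside Rn45s, a ribosomal RNA row that took between 12.4% and 91.5% of a neuron's counts. Counts outside Rn45s ran from 330407 to 2396541 in ACP neurons, from 313668 to 2226230 in ACV neurons and from 118492 to 1821510 in Larynx neurons, with a median of 560892 in Larynx neurons against 1115375 and 1120511.5 in ACP and ACV neurons. A read of the cholinergic gene Slc18a3, which encodes the vesicular acetylcholine transporter, was present in 100% of neurons of each type. The markers used for each type are listed by the study as enriched genes of these same neurons, so their levels do not test the annotation. The median summed level of 4 ACP markers (Calb1, Trhr, Tacr3, Mc4r) was 4.04 in ACP, 0.0524 in ACV and 0.689 in Larynx neurons. That of 4 ACV markers (Bche, Ghsr, Htr3b, Sstr2) was 1.82 in ACV, 0.0153 in ACP and 0 in Larynx neurons. That of 4 Larynx markers (Calca, Calcb, Dlk1, Pnoc) was 24.4 in Larynx, 0.376 in ACP and 0.443 in ACV neurons. Markers of other cells were present in all types. The summed level of 6 microglia markers (Cx3cr1, Csf1r, C1qa, C1qb, Tyrobp, P2ry12) had a median of 0.016 in ACP, 0.172 in ACV and 0.174 in Larynx neurons, with highest values of 6.56, 49.96 and 18.2 in the same order, and it was 0 in 23, 36 and 18 neurons. No microglia marker was at 0 in all neurons of a type.

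Of the 10 genes, 9 had a read in at least 10% of all neurons, as did 12809 genes of the table. Plcb2 did not, with a read in 3 ACP, 9 ACV and 2 Larynx neurons. The ACP and ACV types were compared first, to ask which parts of the pathway set the cardiac types apart. A mean level at least 2-fold higher in ACV neurons was found for 3 of the 9 genes (Plcb4, Dgkg, Dgki), beside 7.72% of all genes, and at least 2-fold higher in ACP neurons for 1 (Dgkb), beside 8.74% of all genes. Against Larynx neurons, 4 of the 9 were at least 2-fold higher in ACP neurons (Dgka, Dgkb, Dgkg, Dgkh), beside 9.59% of all genes, and 1 was higher in Larynx neurons (Plcb1), beside 11.5%. Between ACV and Larynx neurons, 5 of the 9 were higher in ACV neurons (Plcb4, Dgka, Dgkg, Dgkh, Dgki), beside 9.48% of all genes, and 0 in Larynx neurons, beside 13% of all genes. The members were selected on these contrasts, so nothing is read from these shares. The 3 comparisons share their neurons and are not independent of each other. The median log2 ratio over the 9 genes was -0.40 for ACP over ACV, 0.23 for ACP over Larynx and 1.15 for ACV over Larynx, and that over all genes tested lay between -0.03 and 0.00. Scaling to totals that include Rn45s moved the median of all genes to 0.59 for ACP over Larynx and 0.52 for ACV over Larynx, and moved the share of 2-fold calls that were higher in the heart type from 45.6% to 85.2% and from 42.2% to 79.6%.

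Plcb4, the family member best known from Purkinje cells and retina, had the most unequal levels of the Plcb genes that passed the filter. Its level ran from 0 to 2.05 with a median of 0.292 in ACP neurons, from 0 to 15.9 with a median of 3.09 in ACV neurons, and from 0 to 2.99 with a median of 0.483 in Larynx neurons. ACV neurons were high and the other types low: 69 of 98 ACV neurons lay above the highest ACP neuron and 51 of 98 above the highest Larynx neuron, while 0 ACP and 0 Larynx neurons lay above the ACV median. The mean level was 3.86 ± 2.91 (SD, n = 98) in ACV, 0.430 ± 0.436 (SD, n = 53) in ACP and 0.637 ± 0.672 (SD, n = 52) in Larynx neurons, or 8.97-fold higher in ACV than in ACP neurons (log2 ratio of ACP over ACV -3.16) and 6.05-fold higher in ACV than in Larynx neurons. The gap between ACV and either other type was larger than the SD in each type, and that between ACP and Larynx neurons was smaller. An ACV neuron drawn at random exceeded an ACP neuron with a probability of 0.918 and a Larynx neuron with a probability of 0.894, ties being split evenly. The low types were not empty, since 45 ACP neurons (84.9%, exact 95% interval 72.4% to 93.3%) and 43 Larynx neurons (82.7%, 69.7% to 91.8%) held a Plcb4 read, beside 94 ACV neurons (95.9%, 89.9% to 98.9%). Pooled over neurons, 46000 Plcb4 reads in ACV neurons gave a level of 3.98 (exact Poisson 95% interval 3.94 to 4.01) and 2752 in ACP neurons gave 0.426 (0.410 to 0.442). Intervals on reads and shares cover counting error only, since amplified reads are not independent molecules.

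Plcb1, which is abundant in cortex and hippocampus, lies on chromosome 2 next to Plcb4 on the same strand (GRCm38, 134786067 to 135475258 for Plcb1 and 135659011 to 136014593 for Plcb4) but did not share its pattern. Its level had a median of 0.386 in ACP neurons (0 to 3.16), 0.922 in ACV neurons (0 to 5.12) and 1.27 in Larynx neurons (0 to 5.60). The 3 distributions overlapped over most of their range. Means were 0.654 ± 0.675 (SD, n = 53), 1.18 ± 1.05 (SD, n = 98) and 1.48 ± 1.45 (SD, n = 52), so that Larynx neurons stood 2.27-fold above ACP neurons and 1.26-fold above ACV neurons. With Rn45s kept in the totals, the log2 ratio of ACP over Larynx went from -1.18 to -0.64, under the 2-fold mark, and that of ACV over Larynx turned from -0.33 to 0.13. The gap between ACP and Larynx means was larger than the SD between ACP neurons and smaller than that between Larynx neurons. The other gaps were smaller than the SD in either type compared. A Larynx neuron exceeded an ACP neuron with a probability of 0.686 and an ACV neuron with a probability of 0.547. For an ACV neuron over an ACP neuron the probability was 0.670. A Plcb1 read was present in 86.8% of ACP, 94.9% of ACV and 90.4% of Larynx neurons.

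Plcb3 and Plcb2, isoforms that G protein beta-gamma subunits also activate, were scarce. Plcb3 had a median of 0 in each type and a read in 17 ACP, 40 ACV and 13 Larynx neurons, with mean levels of 0.142 ± 0.340, 0.169 ± 0.351 and 0.121 ± 0.429 (SD, n = 53, 98 and 52). The types overlapped fully. Plcb2, an isoform of blood cells, had mean levels of 0.0287 ± 0.170, 0.0607 ± 0.266 and 0.0174 ± 0.110, its highest value of 2.05 being in an ACV neuron. Of the 14 neurons with a Plcb2 read, 3 also held a read of the microglial genes Cx3cr1 or Csf1r, as did 59 neurons in all; the part of microglial RNA in the Plcb2 reads was not tested.

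**Figure D1:**
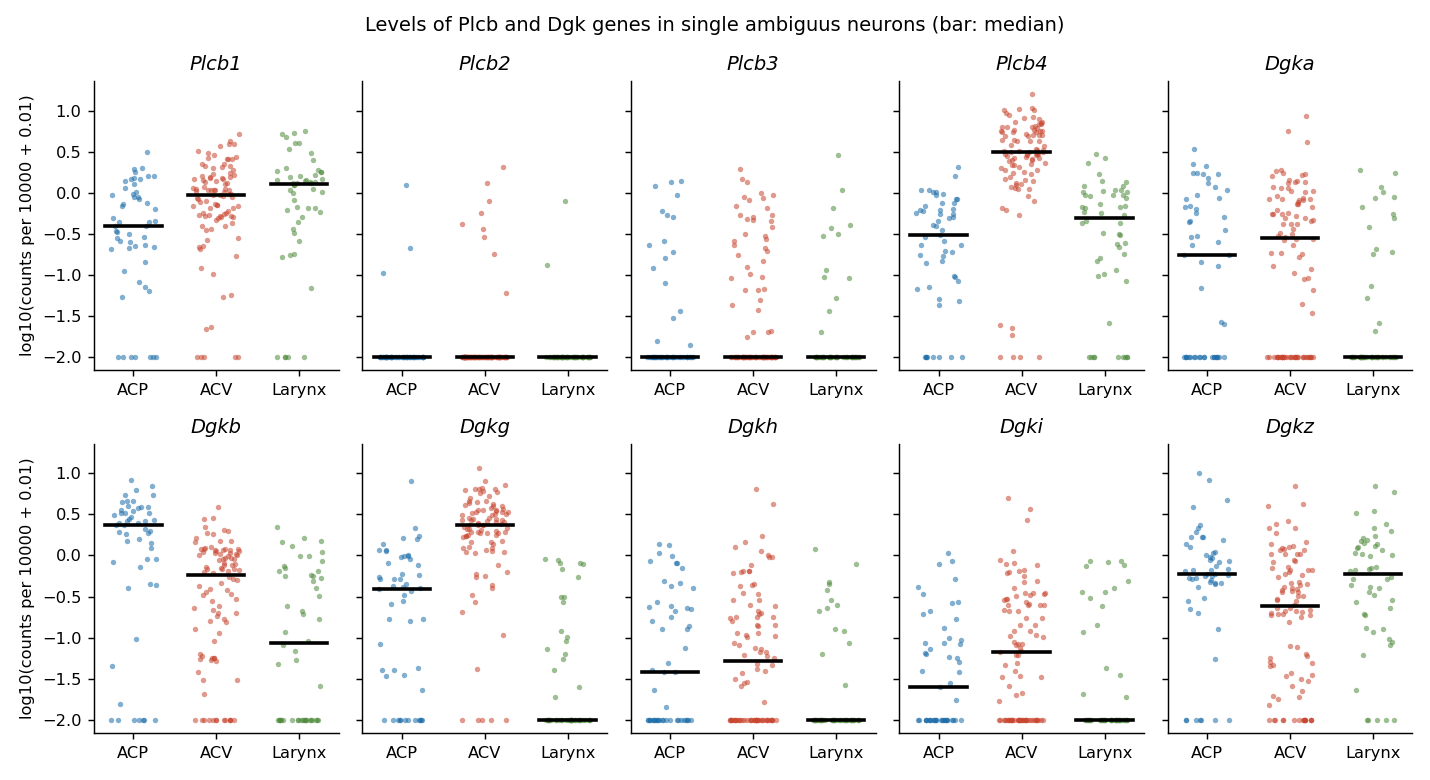
Levels of the 10 genes in each neuron, 1 point per neuron in 53 ACP (blue), 98 ACV (red) and 52 Larynx neurons (green). The y axis is the log10 of counts per 10000 outside Rn45s plus 0.01, so -2 means no read, and black bars are medians. ACV neurons stand above the others in Plcb4 and Dgkg, with medians of 3.09 and 2.34, and ACP neurons in Dgkb, with a median of 2.35.

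Among the diacylglycerol kinases, a different type I isoform led in each cardiac type. Dgkg, on the minus strand of chromosome 16 (22468461 to 22657221), encodes a kinase abundant in cerebellum. Its level ran from 0 to 8.12 with a median of 0.378 in ACP neurons, from 0 to 11.6 with a median of 2.34 in ACV neurons, and from 0 to 0.903 with a median of 0 in Larynx neurons. Larynx neurons were the lowest, with 81 of 98 ACV neurons and 13 of 53 ACP neurons above the highest of them, and 1 ACP neuron lay above the ACV median. Mean levels were 0.631 ± 1.18 (SD, n = 53) in ACP, 2.70 ± 2.04 (SD, n = 98) in ACV and 0.129 ± 0.266 (SD, n = 52) in Larynx neurons. The ACV mean was 4.28-fold above that of ACP neurons and 20.9-fold above that of Larynx neurons, and the ACP mean was 4.88-fold above that of Larynx neurons. An ACV neuron exceeded an ACP neuron with a probability of 0.866 and a Larynx neuron with a probability of 0.946. A Dgkg read was found in 41 ACP neurons (77.4%, exact 95% interval 63.8% to 87.7%), 93 ACV neurons (94.9%, 88.5% to 98.3%) and 19 Larynx neurons (36.5%, 23.6% to 51.04%).

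Dgkb, on the plus strand of chromosome 12 (37817726 to 38634239), encodes a kinase best known from striatal neurons and had the opposite order between the cardiac types. Its level ran from 0 to 8.24 with a median of 2.35 in ACP neurons, from 0 to 3.84 with a median of 0.570 in ACV neurons, and from 0 to 2.22 with a median of 0.0753 in Larynx neurons. ACP neurons were the high group, but 10 of 53 lay above the highest ACV neuron and 27 of 53 above the highest Larynx neuron, so the groups overlapped more than for Plcb4. The means of 2.35 ± 1.96 (SD, n = 53), 0.687 ± 0.716 (SD, n = 98) and 0.371 ± 0.524 (SD, n = 52) made Dgkb 3.43-fold higher in ACP than in ACV neurons and 6.35-fold higher in ACP than in Larynx neurons. The gap between ACP and ACV neurons was smaller than the SD between ACP neurons and larger than that between ACV neurons. An ACP neuron exceeded an ACV neuron with a probability of 0.752 and a Larynx neuron with a probability of 0.824. The ACV mean was 1.85-fold above the Larynx mean, under the 2-fold mark. That ratio reached the mark under 5 of 9 other ways of processing. The share of neurons with a read did not separate the cardiac types, at 46 of 53 ACP neurons (86.8%) and 85 of 98 ACV neurons (86.7%), against 31 of 52 Larynx neurons (59.6%); the cardiac types differed in amount.

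Dgka, the isoform studied most in T lymphocytes, and Dgkh, a type II kinase, were lower in Larynx neurons than in both cardiac types and little different between those. Dgka had medians of 0.163, 0.273 and 0 in ACP, ACV and Larynx neurons (highest 3.42, 8.52 and 1.87) and means of 0.532 ± 0.751, 0.621 ± 1.15 and 0.198 ± 0.434 (SD, n = 53, 98 and 52). Its mean was 2.69-fold higher in ACP and 3.14-fold higher in ACV than in Larynx neurons, gaps smaller than the SD within the cardiac types. Dgkh had medians of 0.0286, 0.042 and 0 (highest 1.39, 6.39 and 1.19) and means of 0.224 ± 0.361, 0.295 ± 0.815 and 0.0872 ± 0.218. All 3 groups overlapped in both genes. Without neurons that held a Cx3cr1 or Csf1r read, the log2 ratio of Dgka for ACP over Larynx went from 1.43 to 0.93, under the 2-fold mark.

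The type IV kinases, which bind synaptic scaffold proteins, went in opposite directions between the cardiac types. Dgki had medians of 0.0149, 0.0578 and 0 in ACP, ACV and Larynx neurons (highest 1.07, 4.95 and 0.852). Its mean of 0.273 ± 0.684 (SD, n = 98) in ACV neurons was 2.46-fold above the 0.111 ± 0.224 (SD, n = 53) of ACP neurons and 2.21-fold above the 0.124 ± 0.252 (SD, n = 52) of Larynx neurons, in each case by less than 1 SD. An ACV neuron exceeded an ACP neuron with a probability of only 0.591. The log2 ratio of ACV over Larynx for Dgki, 1.15, stayed past the 2-fold mark under 5 of 8 other ways of processing and fell under it with summed counts (0.81), without the highest 5% of neurons (0.87) and among neurons with at most 900 Apoe counts (0.74). Dgkz had medians of 0.591, 0.231 and 0.586 (highest 10.1, 6.98 and 7.06). Its means of 1.16 ± 1.85, 0.593 ± 1.01 and 1.02 ± 1.38 gave 1.96-fold for ACP over ACV, just under the 2-fold mark, which the ratio reached under 7 of 9 other ways of processing, and the types overlapped throughout.

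The 4 kinase genes that were not picked were read out the same way. Dgkk, a type II kinase on the X chromosome, was highest in Larynx neurons. The study lists Dgkk as enriched in laryngeal neurons of these same data, so this is not an independent finding. Its level ran from 0 to 1.49 with a median of 0.078 in ACP neurons, from 0 to 2.45 with a median of 0.0123 in ACV neurons, and from 0 to 8.91 with a median of 1.61 in Larynx neurons. Larynx neurons were high, with 29 of 52 above the highest ACP neuron and 19 of 52 above the highest ACV neuron. Means of 2.09 ± 1.92 (SD, n = 52), 0.261 ± 0.398 (SD, n = 53) and 0.220 ± 0.469 (SD, n = 98) put Larynx neurons 7.998-fold above ACP and 9.46-fold above ACV neurons. Dgkd, also type II, had means of 0.534, 0.326 and 0.943 in ACP, ACV and Larynx neurons and was 2.89-fold higher in Larynx than in ACV neurons. Dgke, with 0.590, 0.333 and 0.410, and Dgkq, with 0.432, 0.325 and 0.340, did not reach 2-fold in any comparison.

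**Figure D2:**
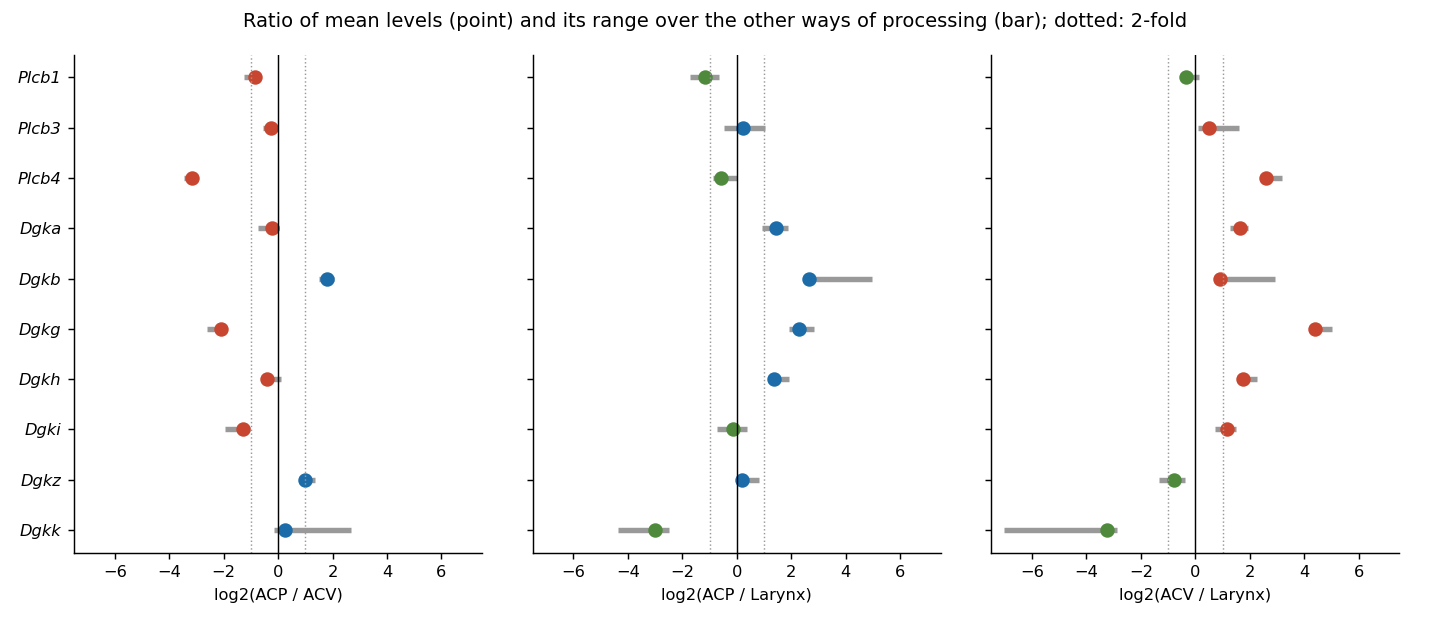
Log2 ratio of mean levels (x axis) for 9 members and Dgkk (y axis) in the 3 comparisons. Points are the ratios given in the text, colored by the higher type (ACP blue, ACV red, Larynx green), gray bars span the finite values under the other ways of processing, and dotted lines mark 2-fold. Plcb4 stays between -3.45 and -3.13 and Dgkg between -2.63 and -1.95 for ACP over ACV, and Dgkb between 1.499 and 2.04.

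Levels of different genes can be compared only per length, so each was divided by the kilobases of its merged protein-coding exons in GENCODE release M21, from 2.834 kb for Dgka to 15.451 kb for Dgkh. On this scale the 4 Plcb genes summed to 0.208 ± 0.150 in ACP (SD, n = 53), 0.948 ± 0.573 in ACV (SD, n = 98) and 0.351 ± 0.248 in Larynx neurons (SD, n = 52). The ACV sum was 4.55-fold above the ACP sum and 2.70-fold above the Larynx sum, in each case by more than 1 SD. The 10 Dgk genes together summed to 1.27 ± 0.761 in ACP, 1.46 ± 0.864 in ACV and 0.976 ± 0.614 in Larynx neurons, sums that differed by 1.15-fold between the cardiac types and by no more than 1.496-fold in any comparison, less than 1 SD. With Rn45s kept in the totals the Dgk sums of ACP and ACV neurons were 1.97-fold and 2.22-fold that of Larynx neurons, while their order stayed under all 4 scalings tried.

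**Figure D3:**
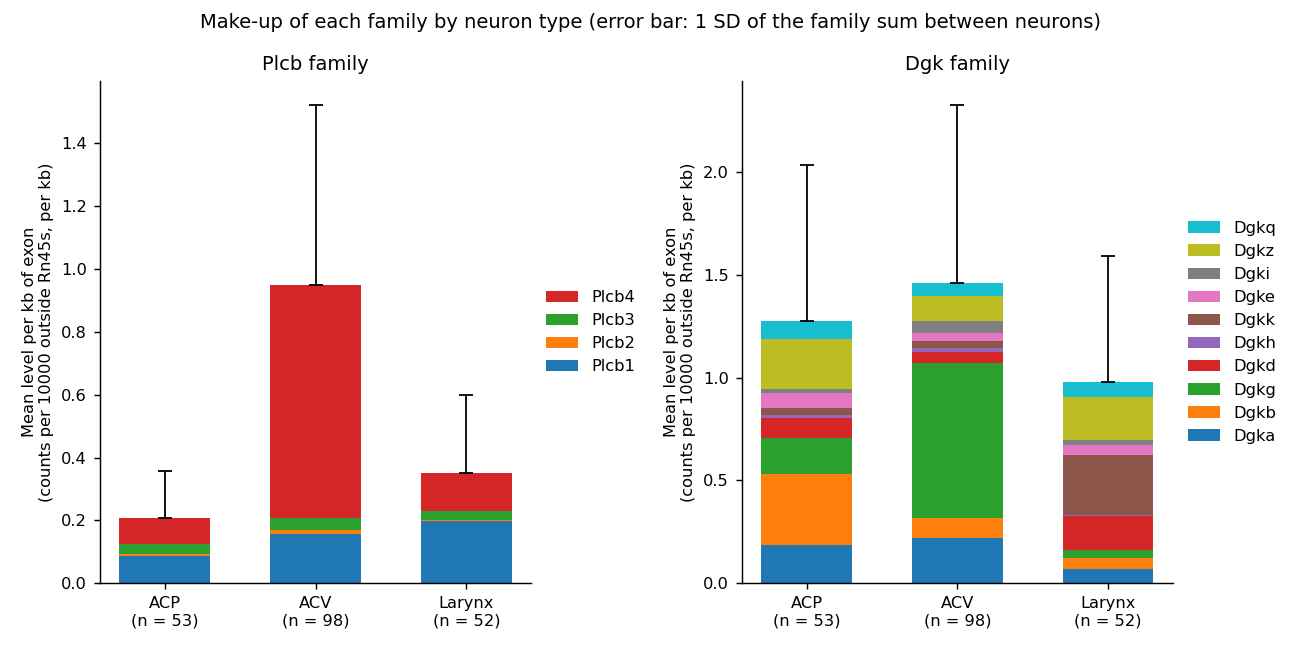
Mean level per kb of exon of each Plcb gene (left) and each Dgk gene (right), stacked by neuron type, in counts per 10000 outside Rn45s per kb. Error bars are 1 SD of the family sum between neurons. Plcb4 fills 77.99% of the Plcb bar in ACV neurons, and the largest part of the Dgk bar is Dgkb in ACP (27.1%), Dgkg in ACV (51.3%) and Dgkk in Larynx neurons (29.9%).

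Per length, Plcb4 made up 77.99% of the mean Plcb sum in ACV neurons, against 39.6% in ACP and 34.8% in Larynx neurons, where Plcb1 made up 41.7% and 56.2%. Plcb4 was the most abundant Plcb gene in 86 of 98 ACV neurons (87.8%, exact 95% interval 79.6% to 93.5%), 21 of 53 ACP neurons (39.6%, 26.5% to 53.996%) and 20 of 52 Larynx neurons (38.5%, 25.3% to 52.98%). Type I kinases made up 55.6% of the Dgk sum in ACP and 73.2% in ACV neurons but 16.4% in Larynx neurons, where type II kinases made up 47.4% against 11.4% and 7.33% in ACP and ACV neurons. The share of type IV kinases was 20.7%, 12.2% and 24.1% in ACP, ACV and Larynx neurons. The most abundant kinase of a neuron was Dgkg in 76 of 98 ACV neurons (77.6%, 68.01% to 85.4%), Dgkb in 26 of 53 ACP neurons (49.1%, 35.1% to 63.2%), and Dgkk in 20 (38.5%, 25.3% to 52.98%) and Dgkz in 14 of 52 Larynx neurons. No kinase led in a majority of ACP or of Larynx neurons.

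A ratio of genes within a neuron does not depend on how totals are scaled. Dgkg exceeded Dgkb per length in 90 of 98 ACV neurons (91.8%, exact 95% interval 84.5% to 96.4%), 12 of 53 ACP neurons (22.6%, 12.3% to 36.2%) and 15 of 52 Larynx neurons (28.8%, 17.1% to 43.1%). Dgkb exceeded Dgkg in 37 ACP, 7 ACV and 24 Larynx neurons, the rest having neither. Dgkk exceeded Dgkb in 43 of 52 Larynx neurons, 13 of 53 ACP neurons and 18 of 98 ACV neurons. Plcb4 exceeded Plcb1 in 87 of 98 ACV neurons (88.8%, 80.8% to 94.3%), 23 of 53 ACP neurons (43.4%, 29.8% to 57.7%) and 20 of 52 Larynx neurons (38.5%, 25.3% to 52.98%). The kinase pair therefore had a different leader in the cardiac types, and in the phospholipase pair Plcb4 led in most ACV neurons but in a minority of ACP and Larynx neurons.

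**Figure D4:**
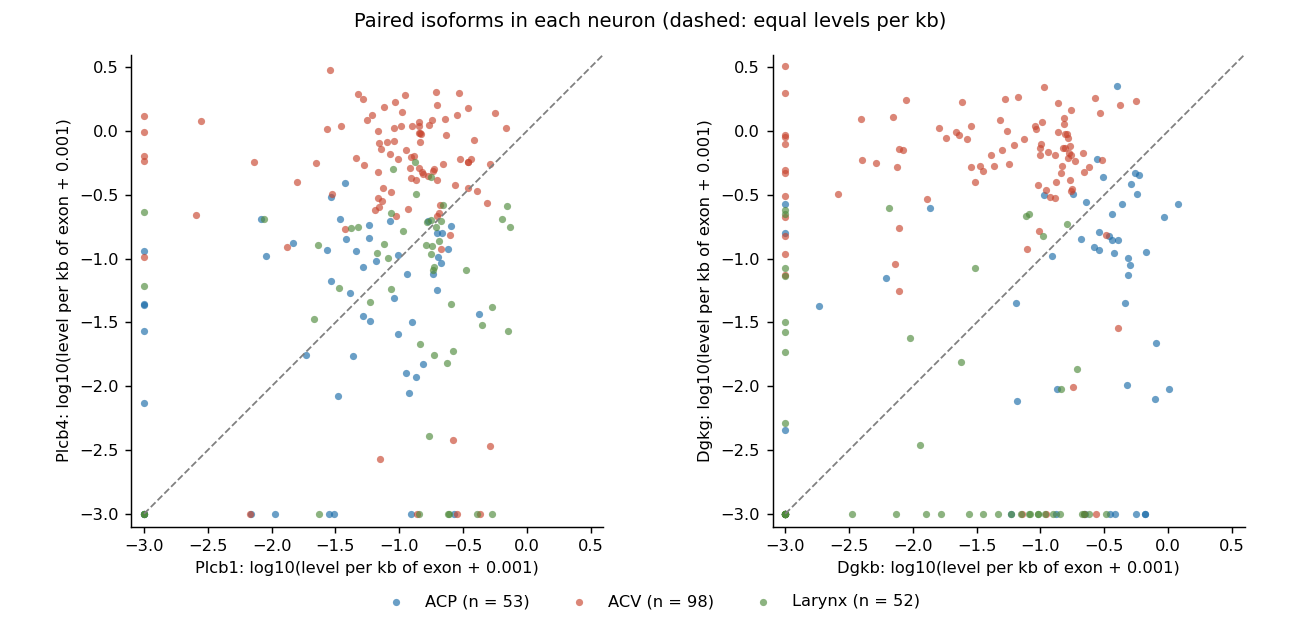
Level per kb of exon of Plcb4 against Plcb1 (left) and of Dgkg against Dgkb (right) in each neuron, as log10 of counts per 10000 per kb plus 0.001, so -3 means no read. Points are ACP (blue, n = 53), ACV (red, n = 98) and Larynx neurons (green, n = 52), and the dashed line marks equal levels; 90 ACV neurons lie above it on the right and 37 ACP neurons below it.

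Single neurons mostly held several isoforms. The median number of Dgk genes with a read was 7 in ACP, 7.5 in ACV and 5 in Larynx neurons, and that of Plcb genes was 2 in each type. Plcb4 and Dgkg reads occurred together in 91 of 98 ACV neurons, 36 of 53 ACP neurons and 19 of 52 Larynx neurons. Within ACV neurons the levels of Plcb4 and Dgkg had a Spearman correlation of 0.35 (n = 98), within ACP neurons 0.01 (n = 53) and within Larynx neurons 0.16 (n = 52); neurons share depth and library preparation, and no p is given. Dgkb and Dgkg were not alternatives within a neuron: both had a read in 38 of 53 ACP and 81 of 98 ACV neurons, and their correlation was 0.18 and 0.03. The 4 ACV neurons without a Plcb4 read had a median of 4962.5 genes with a read against 7824 in the other 94, and the 5 without a Dgkg read had a median of 4871 against 7853.

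Larynx neurons had fewer counts outside Rn45s, so shares of neurons with a read were also taken after each neuron was thinned to 200000 such counts, which left out 3 Larynx neurons. A Dgkg read then remained in 37 of 53 ACP neurons (69.8%, exact 95% interval 55.7% to 81.7%), 93 of 98 ACV neurons (94.9%, 88.5% to 98.3%) and 16 of 49 Larynx neurons (32.7%, 19.9% to 47.5%). For Dgkb the thinned shares were 84.9%, 78.6% and 59.2%, and for Plcb4 77.4%, 92.9% and 83.7%. Dgka kept a read in 56.6%, 64.3% and 28.6% of neurons and Dgkh in 49.1%, 53.1% and 24.5%. The order of the types in these genes was the same as without thinning, apart from Plcb4, where the ACP share of 84.9% had been above the Larynx share of 82.7%, and Dgkb, where the shares of the cardiac types moved apart.

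The promoters of the 4 genes with the clearest type preference or the nearest neighbor are shown to place the members in the genome, in windows of 300 bases that span a RefSeq start on GRCm38.p6, read in the direction of the gene. Capitals mark a GC box (GGGCGG) or an E-box (CANNTG, where N is any base), searched on both strands with overlapping matches counted apart; 35.7% of the 32851 RefSeq promoters of this length hold the first and 72.3% the second.
Plcb4 (chr2:135659297-135659596, plus strand): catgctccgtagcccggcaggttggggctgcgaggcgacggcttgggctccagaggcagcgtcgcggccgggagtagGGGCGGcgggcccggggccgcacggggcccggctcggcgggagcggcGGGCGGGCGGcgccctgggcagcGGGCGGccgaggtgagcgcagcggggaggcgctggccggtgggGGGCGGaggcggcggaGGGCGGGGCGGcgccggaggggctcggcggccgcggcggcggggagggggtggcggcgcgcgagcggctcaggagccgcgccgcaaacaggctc
Dgkg (chr16:22657182-22657481, minus strand): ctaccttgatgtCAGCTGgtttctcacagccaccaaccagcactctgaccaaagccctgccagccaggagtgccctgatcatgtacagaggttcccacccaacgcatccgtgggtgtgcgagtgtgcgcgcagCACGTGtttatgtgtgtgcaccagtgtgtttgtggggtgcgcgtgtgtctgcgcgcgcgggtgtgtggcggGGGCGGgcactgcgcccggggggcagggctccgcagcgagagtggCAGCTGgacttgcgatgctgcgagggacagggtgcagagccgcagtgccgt
Dgkb (chr12:37879924-37880223, plus strand): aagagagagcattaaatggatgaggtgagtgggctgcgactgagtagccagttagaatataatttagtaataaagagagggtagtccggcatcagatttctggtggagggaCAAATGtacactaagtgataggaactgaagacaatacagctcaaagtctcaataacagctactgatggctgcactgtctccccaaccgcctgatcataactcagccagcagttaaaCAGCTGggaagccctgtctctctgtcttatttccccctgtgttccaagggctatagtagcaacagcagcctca
Plcb1 (chr2:134785914-134786213, plus strand): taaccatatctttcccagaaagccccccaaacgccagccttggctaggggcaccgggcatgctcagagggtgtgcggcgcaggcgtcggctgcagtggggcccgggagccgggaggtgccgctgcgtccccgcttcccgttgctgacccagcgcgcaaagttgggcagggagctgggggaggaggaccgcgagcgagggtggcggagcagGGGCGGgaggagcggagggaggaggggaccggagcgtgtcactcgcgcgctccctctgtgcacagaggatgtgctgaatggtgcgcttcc
Plcb4 and Dgkg, the pair high in ACV neurons, had windows with 84% and 65% G or C, 50 and 22 CG dinucleotides (median over all promoters 7), 7 and 1 GC boxes and 0 and 3 E-boxes. The Dgkb window had 46.3% G or C, 3 CG dinucleotides, 0 GC boxes and 2 E-boxes, and the Plcb1 window 69.7% G or C, 26 CG dinucleotides, 1 GC box and 0 E-boxes. None of the 4 held the T-box core GGTGTGA or the homeodomain site TAATTA, which 3.98% and 5.29% of all promoters hold. RefSeq lists 2 starts for Plcb4, and the window of the other (chr2:135764588-135764887) had 44.3% G or C, 3 CG dinucleotides and 0 GC boxes. The Dgkb window, from 37879924, lies well inside the gene, whose GENCODE start is at 37817726. The printed Plcb4 window, from 135659297, also lies inside its gene, downstream of the GENCODE start at 135659011. Neither is thus the window of its GENCODE start, whose sequence was not read. Matches are letters in a window, and which start the neurons use was not measured.

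The rest of the pathway was read from lists of genes by role, and the counts past 2-fold in them stand beside 8.74% of all genes higher in ACP and 7.72% higher in ACV neurons between the cardiac types, 9.59% higher in ACP and 11.5% higher in Larynx neurons, and 9.48% higher in ACV and 13% higher in Larynx neurons. Lists of about 10 genes with 1 such gene are near these shares, and nothing is called particular to a list. Upstream, Gnaq and Gna11, the alpha subunits that activate Plcb enzymes, were near equal in the types: Gnaq had mean levels of 2.97 ± 1.66, 3.29 ± 1.69 and 2.67 ± 1.84 and Gna11 of 3.02 ± 1.42, 3.27 ± 1.78 and 2.85 ± 2.11 in ACP, ACV and Larynx neurons (SD, n = 53, 98 and 52), with a read in at least 97.96% of each type. Of 3 such subunit genes tested, Gna14 alone passed 2-fold, with a mean of 0.433 in Larynx neurons against 0.106 and 0.0465 in ACP and ACV neurons. Of 28 genes of Gq-coupled receptors tested, 9 were at least 2-fold higher in ACP and 4 in ACV neurons; against Larynx neurons 5 were higher and 9 lower in ACP neurons, and 5 were higher and 13 lower in ACV neurons. The list holds receptors of both cardiac types: P2ry1, a purine receptor, had means of 0.0320, 0.307 and 0.0047 in ACP, ACV and Larynx neurons, and Tacr3, the neurokinin B receptor, 0.838, 0.00597 and 0.609. The ghrelin receptor gene Ghsr had a read in 65 of 98 ACV neurons, of which 64 also held Plcb4, in 11 Larynx neurons, and in 0 of 53 ACP neurons, which allows a share of neurons with a read of up to 5.66% by the limit of 3 counts and of up to 6.72% by the exact interval. Chrm3, a muscarinic receptor, was scarce, with a read in 6 ACP, 27 ACV and 19 Larynx neurons.

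RGS proteins speed the turn-off of Gq. Of 5 such genes tested, 2 were higher in ACP than in ACV neurons (Rgs5, Rgs8) and 0 the other way. Rgs4 had mean levels of 2.91 ± 2.93, 3.30 ± 2.53 and 0.734 ± 0.888 in ACP, ACV and Larynx neurons, and so followed the cardiac types, while Rgs8 had 0.412 ± 0.551, 0.0599 ± 0.230 and 0.170 ± 0.377 and was highest in ACP neurons.

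Of 13 phospholipase C genes outside the beta family, 2 were higher in ACP than in ACV neurons (Plcd3, Plch1) and 0 lower, and 3 were higher in Larynx than in ACP neurons (Plcg2, Plch1, Plch2) and 1 lower (Plcd3). Plch1, of the neuronal eta family, had means of 0.152, 0.0444 and 0.707 in ACP, ACV and Larynx neurons, and Plch2 of 0.0800, 0.0460 and 0.310. Plcd1 had 0.133, 0.252 and 0.0972, and Plcd4 0.202, 0.150 and 0.330. Both eta genes had their highest mean in Larynx neurons, as Dgkk did and Plcb4 did not.

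Downstream of IP3, 1 of 3 receptor genes passed 2-fold in each comparison, Itpr3, which was highest in Larynx neurons with a mean of 0.410 ± 0.790 against 0.0171 ± 0.0527 in ACP and 0.00373 ± 0.0173 in ACV neurons. Of 6 genes of IP3 breakdown and phosphorylation, 1 was higher in ACP than in ACV neurons (Itpkb), 3 were higher in Larynx than in ACP neurons (Itpkb, Itpkc, Impa2) and 4 higher in Larynx than in ACV neurons (those and Inpp5a). Itpkc had means of 0.0772, 0.0642 and 0.280, and Inpp5a, an IP3 phosphatase, of 0.291, 0.198 and 0.404, in ACP, ACV and Larynx neurons.

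Of 9 protein kinase C genes, 1 was at least 2-fold higher in ACP than in ACV neurons (Prkch) and 0 lower. The list includes the atypical forms Prkci and Prkcz, which diacylglycerol does not activate. Larynx neurons were higher than ACV neurons in 4 (Prkce, Prkch, Prkcq, Prkci) and lower in 1 (Prkca). Prkce had means of 0.409, 0.248 and 0.829 in ACP, ACV and Larynx neurons, Prkci 0.202, 0.159 and 0.339, and Prkca, a classical calcium-dependent form, 0.220, 0.415 and 0.201. Of 11 other genes with a C1 domain tested, 2 were higher in ACP than in ACV neurons (Rasgrp1, Prkd3) and 1 lower (Unc13b). Unc13b, a vesicle priming protein, had means of 0.113, 0.335 and 0.150, Unc13c of 0.375, 0.205 and 0.606, and Chn2 of 0.108, 0.0903 and 0.268. Of the diacylglycerol-gated channels, Trpc6 and Trpc7 were at least 2-fold higher in ACV than in ACP neurons and in Larynx than in ACP neurons. Trpc7 had means of 0.0598, 0.121 and 0.278 in ACP, ACV and Larynx neurons, with SDs larger than each of these means.

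Among genes of lipid handling, of the 2 diacylglycerol lipases, which compete with the kinases for their substrate, 0 passed 2-fold between ACP and ACV neurons, and Dagla had means of 0.472, 0.300 and 0.712 in ACP, ACV and Larynx neurons. Of 11 genes of phosphatidate and phosphatidylinositol resynthesis, 1 was higher in ACP than in ACV neurons (Cds1) and 2 were higher in Larynx than in ACV neurons (Cds1, Pitpnm3). Cds1, which uses the product of the kinases, had means of 0.353, 0.159 and 0.472, and Pitpnm3 of 0.114, 0.0906 and 0.201. Of 10 phosphoinositide kinases of PIP2 synthesis, 1 was higher in ACP than in ACV neurons (Pip5k1b), and Pi4kb had means of 0.150, 0.128 and 0.303. Of these lipid genes, 0 were at least 2-fold higher in ACV than in ACP neurons, beside 7.72% of all genes. With so few genes, nothing is read from this 0.

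Markers of glia are set beside the leading members because whole neurons were aspirated from tissue. The mean summed level of the 6 microglia markers was 0.677 in ACP, 3.29 in ACV and 1.77 in Larynx neurons, highest in the type that was also highest in Plcb4 and Dgkg, and that of 6 astrocyte markers was 15.4, 24.7 and 15.9, also highest in ACV neurons. That of 8 oligodendrocyte lineage markers was 7.24, 4.89 and 7.02 in the same order, lowest in ACV neurons. The medians were 0.016, 0.172 and 0.174 for the microglia markers and 11.8, 9.75 and 11.3 for the astrocyte markers, so the median of the latter was lowest in ACV neurons. In ACV neurons the level of Apoe, which astrocytes and microglia make, had a Spearman correlation of -0.29 with Plcb4 and -0.19 with Dgkg (n = 98), and in ACP neurons -0.06 with Dgkb (n = 53). Among neurons with at most 900 Apoe counts (26 ACP, 44 ACV and 38 Larynx), the log2 ratio of ACP over ACV was -3.45 for Plcb4, -2.38 for Dgkg and 1.499 for Dgkb, against -3.16, -2.10 and 1.78 in all neurons. Among the 41 ACP, 66 ACV and 37 Larynx neurons without a Cx3cr1 or Csf1r read, a setting added after the microglial reads had been seen, it was -3.24, -1.95 and 1.69. In the same subset the ratio was -1.91 for Dgki in place of -1.30, -1.10 for Plcb1 in place of -0.85 and 1.28 for Dgkz in place of 0.97, so that Plcb1 and Dgkz passed the 2-fold mark and 6 members did in place of 4. The part of glial RNA in these differences was not tested.

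The genes whose levels over all neurons were ranked most like those of the members were sought among 7722 genes with a read in at least 50% of neurons. For Plcb4 they were the homeobox gene Hoxa5 (Spearman correlation 0.69), Dgkg (0.64) and the tetraspanin gene Cd9 (0.60). Dgkg was in turn followed by Plcb4 (0.64), Akap7 (0.62), an anchor of protein kinase A, and the homeobox gene Hoxc4 (0.62). All of these genes had their highest mean in ACV neurons, as Hoxa5 had with 4.43 against 0.106 in ACP and 0.126 in Larynx neurons. Within a type the correlations were lower: that of Plcb4 with Hoxa5 was 0.27 in ACP, 0.27 in ACV and 0.29 in Larynx neurons, and that of Dgkg with Akap7 was 0.01, 0.28 and 0.26. For Dgkb the nearest genes were the T-box gene Tbx3 (0.48), Klhl13 (0.42) and the adhesion gene Cntn4 (0.40). Within ACP neurons these correlations were 0.51, 0.48 and 0.53, within ACV neurons 0.27, 0.25 and 0.03, and within Larynx neurons 0.29, 0.10 and 0.39. For Dgki they were Sfswap (0.45), 9530059O14Rik (0.44) and Lrp1b (0.44). Neurons share library preparation and depth, and these values are descriptions without a p.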

How the data were processed

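Cells were single Amb neurons, sequenced as read pairs per the labels and aligned by the authors to mm10 with STAR 2.6.1d; the counting program and its annotation are not given in the sources used here. The deposited table holds raw counts per gene, and the authors had removed neurons with few aligned reads or high Apoe. Neuron types were taken from the deposited annotation. The authors derived ACP and ACV from these counts, while the Larynx type holds the 52 larynx-labeled neurons. Neurons were picked singly and no doublet caller was run. The deposited CPM table was not used.

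The members and gene lists were chosen with earlier results of these data known. Each neuron's count was divided by its counts outside Rn45s and multiplied by 10000. Genes with a read in at least 10% of neurons entered the ratios of mean levels, called at 2-fold; neurons are not animals, so no test was run. Shares have exact Clopper-Pearson and pooled reads exact Poisson 95% intervals. Named pathway genes were those past 2-fold in a comparison with a read in at least 25% of neurons, up to 4 per list by size of ratio, besides those named to spell out a short count, which were chosen after their values were seen, as were Gnaq and Gna11. Exon lengths and loci came from GENCODE release M21 on GRCm38, the assembly mm10, promoters from RefSeq (all 10 members matched). Smart-seq2 does not mark strand. Exons of Dgka, Dgkd, Dgke, Dgkg, Dgkq, Dgkz and Plcb1 overlap genes on the opposite strand and those of Dgkh a gene on the same strand. Reads of these overlapping genes cannot be told apart. Alternatives were other scalings (edgeR 4.0.16, DESeq2 1.42.0), summaries, filters, folds, thinning and subsets of neurons. Scripts ran in Python 3.11.15 and R 4.3.3 and were tested on simulated data.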

Additional observations from a re-analysis of the deposited data

How the results depend on the processing

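Without a detection filter 6963, 7523 and 7993 genes passed 2-fold for ACP against ACV, ACP against Larynx and ACV against Larynx, against 2109, 2698 and 2874 with it, and with detection in at least 25% of neurons 1081, 1584 and 1765 did. At 1.5-fold there were 4153, 5152 and 5525 genes, and at 4-fold 549, 714 and 768, among which were 2 members in each comparison. Among neurons with at most 900 Apoe counts 3344 genes passed 2-fold for ACP against ACV. No called ratio of a member changed direction under the alternatives run, but those of Plcb1 and Dgka for ACP over Larynx and of Dgki for ACV over Larynx each fell under 2-fold in at least 1 of them. Of 259 recomputed log2 ratios 255 moved by less than 1 SD of the log2 levels of single neurons, pooled over both types. The other 4 were ratios of medians, where a median near 0 in 1 type makes the ratio large. That SD is a wide limit: a move of Plcb3 for ACP over Larynx from 0.23 to 1.04 stayed within it. No paired analysis was possible because each type is 1 sample and no result comes from a test. The number of mice behind each type, sex and plate were not in the labels, so differences between mice cannot be told apart from differences between neurons. Larynx neurons had fewer reads, and the part of depth in their lower detection of scarce genes was tested only by thinning.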
